A study of Mus musculus with 15 samples.

Results

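The 10 genes described here encode the pathway by which a cell shows fragments of its own proteins on MHC class I molecules. They were taken by name and mapped by symbol to the Ensembl identifiers of a table of 34259 genes, in which all 10 were found. All 10 were also among the 17497 genes that passed a filter on low counts. B2m encodes the light chain and H2-K1 and H2-D1 the heavy chains of the class I complex. Tap1 and Tap2 form the pump that carries peptides into the endoplasmic reticulum, and Tapbp encodes tapasin, which holds the empty complex beside that pump. Nlrc5 encodes a transactivator of class I genes. Psmb8, Psmb9 and Psmb10 encode the catalytic subunits that replace Psmb5, Psmb6 and Psmb7 when the proteasome becomes an immunoproteasome.

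As background, interferons raise most of these genes through STAT and IRF factors, and NLRC5 acts with RFX, CREB and NF-Y proteins at class I promoters. CD8 T cells read the peptides that class I molecules carry, and tumour cells of glioma often show little class I at their surface.

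The cells were GL261, a line grown from a mouse glioma, with the genotype label WT, and their RNA was sequenced in 15 libraries, 5 groups of 3, all on day 6 and all given fresh medium on the same days. The non-SP group was left untreated and lies outside the side population, the fraction that pumps out the dye Hoechst; the design text calls them Luci+. In the other 4 groups the cells carry the label Hoechst-CD133+ and received a cytokine cocktail whose members the labels do not name. Cells of the PBS group had buffer with the cocktail. For D-gel@GSNP, for L-gel@GSNP and for D-gel@NP, cells were first loaded on ice into freeze-dried hydrogels that the labels call chiral, and then cultured with the cocktail. The letters of the hydrogel names are not spelled out. PBS against non-SP changes the cell population and the cytokines together, and a hydrogel group against PBS includes the ice step. Cultured cells of 1 line have no T cells or host tissue.

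Total counts ran from 16.6 M (mega) in D-gel@NP 1 to 98.1 M in L-gel@GSNP 3, and the mitochondrial share from 2.82% to 3.37% in non-SP and D-gel@GSNP and from 4.28% to 6.35% in the other groups. The D-gel@GSNP libraries lay beside the untreated cells rather than the cytokine-treated ones. Euclidean distances in log2 CPM over all tested genes were 67.6 to 73.93 from D-gel@GSNP to non-SP libraries, 67.53 to 69.44 among the non-SP libraries themselves, and 113.3 to 123.7 from D-gel@GSNP to PBS. A treatment that leaves cells like non-SP cells, shared material and exchanged labels cannot be told apart in these data, and every result on D-gel@GSNP carries that limit. Of the markers that define the labelled cells, Prom1, which encodes CD133, had 2 counts in all of non-SP and 8 to 35 in each other group, with group means of 0.0161 CPM in non-SP, 0.0584 for D-gel@GSNP, 0.107 in D-gel@NP, 0.136 in L-gel@GSNP (libraries 0.045 to 0.307) and 0.157 in PBS. For Olig2 there were 4 counts in PBS and 0 in the rest, while the mesenchymal glioma genes Vim and Cd44 were abundant, with group means of 896 to 1117 CPM and 522 to 1156 CPM.

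The promoters of the class I complex genes carry shared letters, shown here because B2m and H2-D1 moved so unlike each other in the values that follow. RefSeq sequences of build GRCm38.p6 matched 8 of the 10 genes. Tap2 and Nlrc5 were not matched. The 250 bases before the start are printed for the 3 class I complex genes and for Tap1, whose start lies 226 bases from that of Psmb9 on the other strand, so that both genes share the stretch. H2-K1 has 2 windows in the table, and the first is printed. Capitals mark AANNGAAA, a core that IRF factors can bind, GGG and CCC with 5 bases between them, a form of the NF-kB site, and the pair TGACG and ATTGG with 20 bases between them, letters of the CREB and NF-Y boxes.
B2m, chr2:122147437-122147686, plus strand: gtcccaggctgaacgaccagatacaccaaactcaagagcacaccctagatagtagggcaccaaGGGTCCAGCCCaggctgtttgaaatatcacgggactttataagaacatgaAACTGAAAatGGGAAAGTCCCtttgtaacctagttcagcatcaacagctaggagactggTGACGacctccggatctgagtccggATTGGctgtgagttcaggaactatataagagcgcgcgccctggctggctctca
H2-D1, chr17:35262844-35263093, plus strand: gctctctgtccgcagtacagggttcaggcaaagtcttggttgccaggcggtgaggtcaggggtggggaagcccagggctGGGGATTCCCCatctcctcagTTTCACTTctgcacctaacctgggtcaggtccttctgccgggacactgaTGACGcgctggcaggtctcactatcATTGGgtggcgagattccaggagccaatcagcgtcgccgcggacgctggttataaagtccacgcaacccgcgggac
H2-K1, chr17:34000348-34000597, minus strand: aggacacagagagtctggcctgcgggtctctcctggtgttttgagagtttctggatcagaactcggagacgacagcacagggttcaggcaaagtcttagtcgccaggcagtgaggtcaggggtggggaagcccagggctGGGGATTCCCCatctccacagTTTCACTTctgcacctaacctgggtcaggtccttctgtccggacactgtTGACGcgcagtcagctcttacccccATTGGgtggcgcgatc
Tap1, chr17:34187306-34187555, plus strand: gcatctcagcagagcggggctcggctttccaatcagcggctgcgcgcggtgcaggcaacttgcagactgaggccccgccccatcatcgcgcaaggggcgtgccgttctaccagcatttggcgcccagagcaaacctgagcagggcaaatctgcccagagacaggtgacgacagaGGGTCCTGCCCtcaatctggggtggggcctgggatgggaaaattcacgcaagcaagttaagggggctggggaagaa

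Each motif was searched on both strands, and none of the capitals overlap. They were chosen after the sequences had been seen. The pair with 20 bases between was found in 30 of 32851 windows, or 0.0913%, and in B2m, H2-D1 and H2-K1, but in none of the other 5 matched genes. It began 78, 101 and 41 bases before the start of B2m, H2-D1 and H2-K1. AANNGAAA was in 21.3% of all windows and, among the 8 matched genes, in the same 3, reading against the gene in H2-D1 and H2-K1. The NF-kB form was in 12.2% of all windows and in those 3, Tap1 and Psmb9. The matches of Tap1 and Psmb9 are the same letters of their shared stretch, read from opposite strands. The letters TGACG alone were in 17.8% and ATTGG alone in 33.8% of all windows. A match describes letters only and is not a binding site.

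The light chain and the heavy chain did not move together. B2m, in CPM scaled by the TMM factors of edgeR, was 217, 216 and 214 in the non-SP libraries, 447, 414 and 391 in PBS, 231, 217 and 217 in D-gel@GSNP, 341, 312 and 313 in L-gel@GSNP, and 369, 348 and 366 in D-gel@NP. PBS was highest in every library, and the libraries of non-SP and D-gel@GSNP were the lowest. The log2 difference of PBS minus non-SP was 0.95 (SE 0.052), a 1.93-fold rise with an adjusted p of 1.15e-12 (edgeR quasi-likelihood test, Benjamini-Hochberg over all 17497 genes, as for every adjusted p here). D-gel@GSNP was 1.88-fold lower than PBS (adjusted p = 1.93e-12), L-gel@GSNP 1.30-fold lower (adjusted p = 3.22e-06) and D-gel@NP 1.16-fold lower (adjusted p = 0.00372). In bulk RNA, fewer cells of a type and less RNA per cell cannot be told apart.

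H2-D1 read 313, 311 and 322 CPM in non-SP, 326, 346 and 352 in PBS, 331, 337 and 326 in D-gel@GSNP, 406, 399 and 424 in L-gel@GSNP and 378, 349 and 339 in D-gel@NP. Only the L-gel@GSNP libraries stood above all others. L-gel@GSNP exceeded PBS 1.20-fold (log2 0.26, SE 0.047, adjusted p = 7.93e-05) and D-gel@NP 1.15-fold (adjusted p = 0.00318). The difference of PBS and non-SP was 1.08-fold (log2 0.11, 95% interval 0.02 to 0.21, adjusted p = 0.046), and it no longer passed without 5 of the 6 libraries in turn (adjusted p up to 0.147). With the replicate number as a block its adjusted p was 0.0533, and without the filter on low counts 0.233. D-gel@GSNP minus PBS was -0.04, with a 95% interval from -0.14 to 0.05.

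Set beside each other per gene length, in FPKM, H2-D1 was 48.7% ± 1.29 of B2m in non-SP but 27.4% ± 2.85 in PBS (SD, n = 3). The share was 49.8% ± 2.01 for D-gel@GSNP, 42.5% ± 2.74 for L-gel@GSNP and 32.8% ± 1.68 for D-gel@NP. The libraries of PBS ran from 24.3% to 30.0%, below those of every other group. This share was chosen after the values were seen and is a description with no test.

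H2-K1, the other classical heavy chain of this haplotype, was all but absent from the table. It had 4, 5 and 4 counts in the non-SP libraries, 6, 6 and 4 in PBS, 9, 11 and 12 in D-gel@GSNP, 5, 7 and 11 in L-gel@GSNP, and 5, 9 and 10 in D-gel@NP, where H2-D1 had 6338 to 42776. No comparison of H2-K1 passed with edgeR, while limma on log2 FPKM, at counts this low, called 5 of its comparisons under at least 1 of 3 settings, among them D-gel@NP minus non-SP under all 3 (adjusted p 0.00121 to 0.0188). The 2 heavy chain genes are related in sequence, and how the authors counted reads that fit both is not given in the sources used here, so the levels of both are uncertain.

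**Figure D1:**
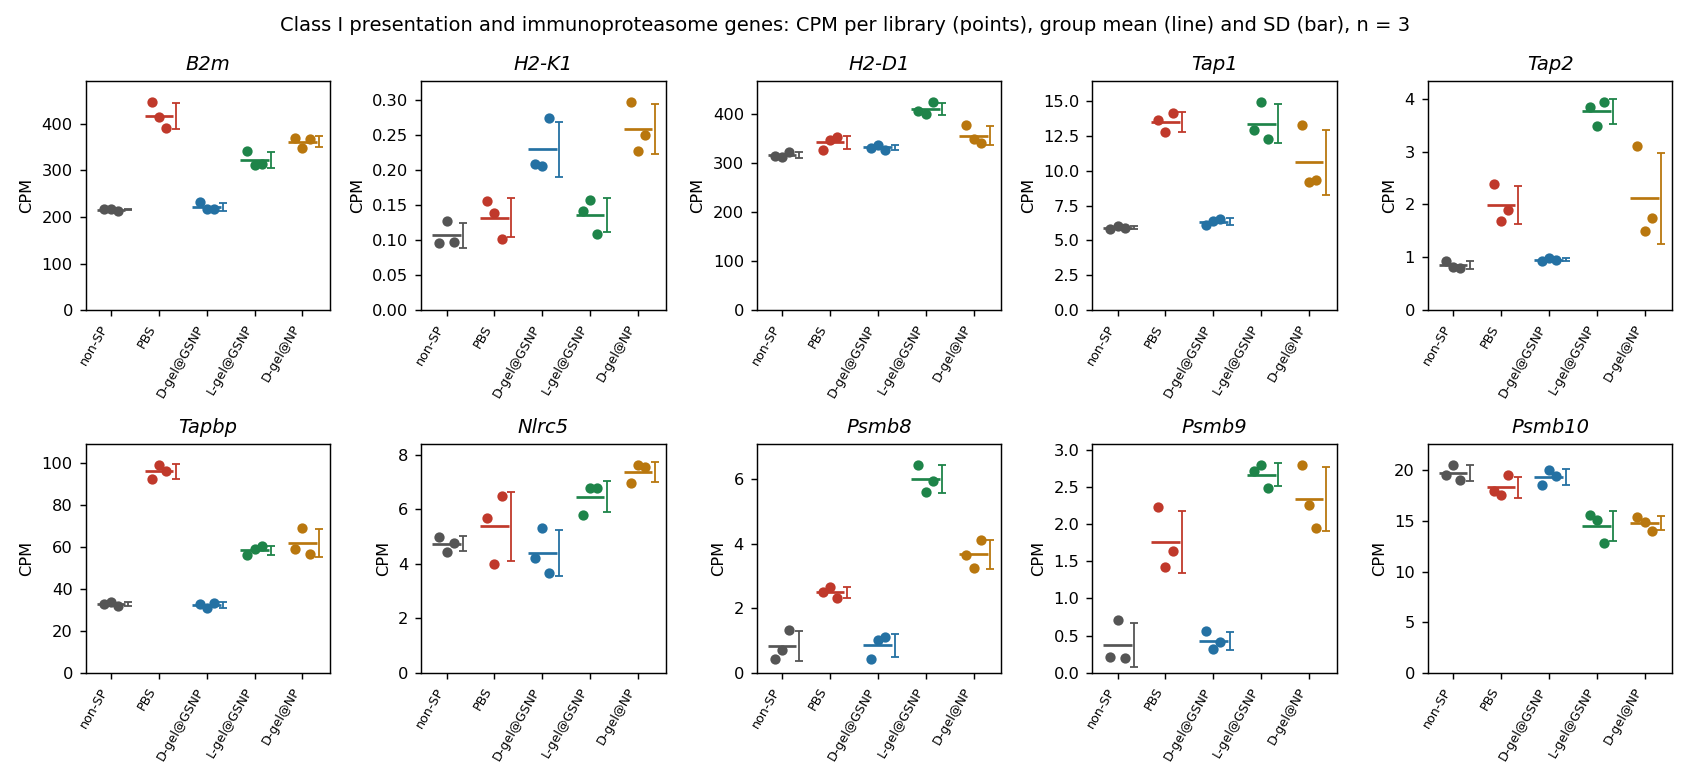
Level of each of the 10 genes in each library (vertical axis, TMM-scaled CPM from 0; horizontal axis, the 5 groups; points are libraries, lines group means and bars SD, n = 3). B2m and Tapbp are highest in PBS, H2-D1, Tap2 and Psmb8 in L-gel@GSNP and Nlrc5 in D-gel@NP, while Psmb10 is lowest in L-gel@GSNP and D-gel@NP.

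The peptide loading genes rose from non-SP to PBS and did not pass between D-gel@GSNP and non-SP, but their order among the hydrogel groups differed from gene to gene. Tapbp read 32.6, 33.6 and 31.9 CPM in non-SP, 92.6, 99.4 and 96.2 in PBS, 33.0, 30.9 and 33.3 in D-gel@GSNP, 56.1, 58.9 and 60.4 in L-gel@GSNP, and 59.1, 69.3 and 56.8 in D-gel@NP. Its 3 tiers did not overlap: non-SP with D-gel@GSNP below, L-gel@GSNP with D-gel@NP between, and PBS above. PBS exceeded non-SP 2.94-fold (log2 1.55, SE 0.067, adjusted p = 2.29e-14). L-gel@GSNP was 1.64-fold (adjusted p = 7.76e-09) and D-gel@NP 1.55-fold (adjusted p = 2.15e-07) lower than PBS.

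Tap1 read 5.84, 6.07 and 5.88 CPM in non-SP, 13.6, 12.8 and 14.2 in PBS, 6.10, 6.37 and 6.57 in D-gel@GSNP, 12.9, 14.96 and 12.3 in L-gel@GSNP, and 13.3, 9.22 and 9.32 in D-gel@NP. PBS and L-gel@GSNP overlapped, and D-gel@NP 1, the shallowest library, stood above its group. The rise from non-SP to PBS was 2.28-fold (log2 1.19, SE 0.12, adjusted p = 2.69e-08), and L-gel@GSNP minus PBS was -0.02 with a 95% interval from -0.24 to 0.21. D-gel@NP was 1.30-fold lower than PBS (adjusted p = 0.0203), a call lost without D-gel@NP 2 or 3 or PBS 1 or 3 (adjusted p 0.0545 to 0.133).

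Tap2 was 0.934, 0.819 and 0.799 CPM in non-SP, 2.38, 1.70 and 1.90 in PBS, 0.931, 0.992 and 0.942 in D-gel@GSNP, 3.85, 3.49 and 3.94 in L-gel@GSNP, and 3.10, 1.49 and 1.75 in D-gel@NP. Unlike its partner, Tap2 was highest in L-gel@GSNP. L-gel@GSNP exceeded PBS 1.89-fold (log2 0.92, SE 0.22, adjusted p = 0.00152) and D-gel@NP 1.86-fold (adjusted p = 0.00691), the second call being lost without D-gel@NP 2 (adjusted p = 0.0589). PBS exceeded non-SP 2.33-fold (adjusted p = 0.00021).

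Nlrc5, the transactivator, did not pass the test between PBS and non-SP. It read 5.01, 4.45 and 4.77 CPM in non-SP, 5.68, 4.00 and 6.48 in PBS, 4.21, 5.32 and 3.67 in D-gel@GSNP, 5.80, 6.78 and 6.81 in L-gel@GSNP, and 6.97, 7.65 and 7.55 in D-gel@NP. PBS overlapped non-SP, with a log2 difference of 0.18 and a 95% interval from -0.14 to 0.50 (adjusted p = 0.37). D-gel@NP exceeded non-SP 1.56-fold (adjusted p = 0.00166) and L-gel@GSNP 1.37-fold (adjusted p = 0.0177), the latter lost without non-SP 2 (adjusted p = 0.0628). The call of D-gel@NP over PBS, 1.38-fold with an adjusted p of 0.0315, was lost without PBS 2 (0.198), D-gel@NP 2 (0.0761) or D-gel@NP 3 (0.0778).

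The immunoproteasome subunits split. Psmb8 was 0.431, 0.691 and 1.33 CPM in non-SP, 2.51, 2.65 and 2.30 in PBS, 0.442, 1.01 and 1.102 in D-gel@GSNP, 6.45, 5.61 and 5.94 in L-gel@GSNP, and 3.64, 3.24 and 4.12 in D-gel@NP. The L-gel@GSNP libraries were above all others and did not overlap with any group. PBS exceeded non-SP 3.03-fold (log2 1.60, SE 0.30, adjusted p = 8.18e-05), and L-gel@GSNP exceeded PBS 2.41-fold (adjusted p = 0.000282) and D-gel@GSNP 6.97-fold (adjusted p = 1.03e-08). Against D-gel@NP it was 1.63-fold higher with an adjusted p of 0.0522. Some other settings took this value to between 0.00281 and 0.0482, the replicate block among them (0.0417). The difference still did not pass with RLE factors, with limma on log2(FPKM + 0.1) or without any 1 of the 6 libraries compared.

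Psmb9 was 0.216, 0.717 and 0.194 CPM in non-SP, 2.23, 1.42 and 1.64 in PBS, 0.559, 0.318 and 0.413 in D-gel@GSNP, 2.72, 2.79 and 2.49 in L-gel@GSNP, and 2.80, 2.25 and 1.95 in D-gel@NP. The 3 cytokine groups other than D-gel@GSNP lay above it and above non-SP without overlap. PBS exceeded non-SP 4.72-fold (log2 2.24, SE 0.36, adjusted p = 1.36e-05). Non-SP 2 alone held 28 of the 45 counts of its group, and without it the log2 differences from non-SP went from 2.24 to 3.09 in PBS, from 2.83 to 3.68 in L-gel@GSNP and from 2.62 to 3.47 in D-gel@NP. L-gel@GSNP minus PBS was 0.59 (adjusted p = 0.104).

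Psmb10 went the other way. It read 19.6, 20.6 and 19.1 CPM in non-SP, 17.9, 17.6 and 19.5 in PBS, 18.6, 20.1 and 19.4 in D-gel@GSNP, 15.6, 15.1 and 12.8 in L-gel@GSNP, and 15.4, 14.9 and 14.0 in D-gel@NP. All 6 libraries of L-gel@GSNP and D-gel@NP lay below all 9 others. L-gel@GSNP was 1.37-fold (adjusted p = 8e-05) and D-gel@NP 1.34-fold (adjusted p = 0.00026) lower than non-SP. The drop from PBS to D-gel@NP, 1.24-fold with an adjusted p of 0.0087, was lost without D-gel@NP 3 (adjusted p = 0.0549).

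Per gene length, the induced subunits were rare beside the constitutive ones they replace. Psmb8 was 0.293% ± 0.167 of Psmb5 in non-SP, 0.994% ± 0.0214 in PBS, 0.292% ± 0.116 in D-gel@GSNP, 2.66% ± 0.225 with L-gel@GSNP and 1.39% ± 0.121 in D-gel@NP (SD, n = 3). Psmb9 was 0.158% ± 0.122, 0.965% ± 0.2, 0.179% ± 0.0465, 1.503% ± 0.0565 and 1.38% ± 0.298 of Psmb6 in the same order. Both shares ordered the groups much as the genes themselves. The lengths behind these FPKM values are 3381 and 3660 bases for Psmb8 and Psmb9 and 899 and 1872 for Psmb5 and Psmb6, so a share depends on which exons the authors' lengths hold.

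Psmb10 was a far larger share, 37.6% ± 1.21 of Psmb7 in non-SP, 47.0% ± 5.08 in PBS, 36.3% ± 1.78 in D-gel@GSNP, 46.5% ± 1.89 with L-gel@GSNP and 47.2% ± 3.53 in D-gel@NP. Its share was higher where Psmb7 was lower: Psmb7 fell from 105 ± 5.92 CPM in non-SP to 78.7 ± 6.46 in PBS (adjusted p = 6.52e-06) and stood at 62.6 ± 4.66 in L-gel@GSNP. Of the 30 exact permutation tests of a share between 2 groups (two-sided, 3 against 3), none could go below p = 0.1, and the lowest adjusted value was 0.136.

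**Figure D2:**
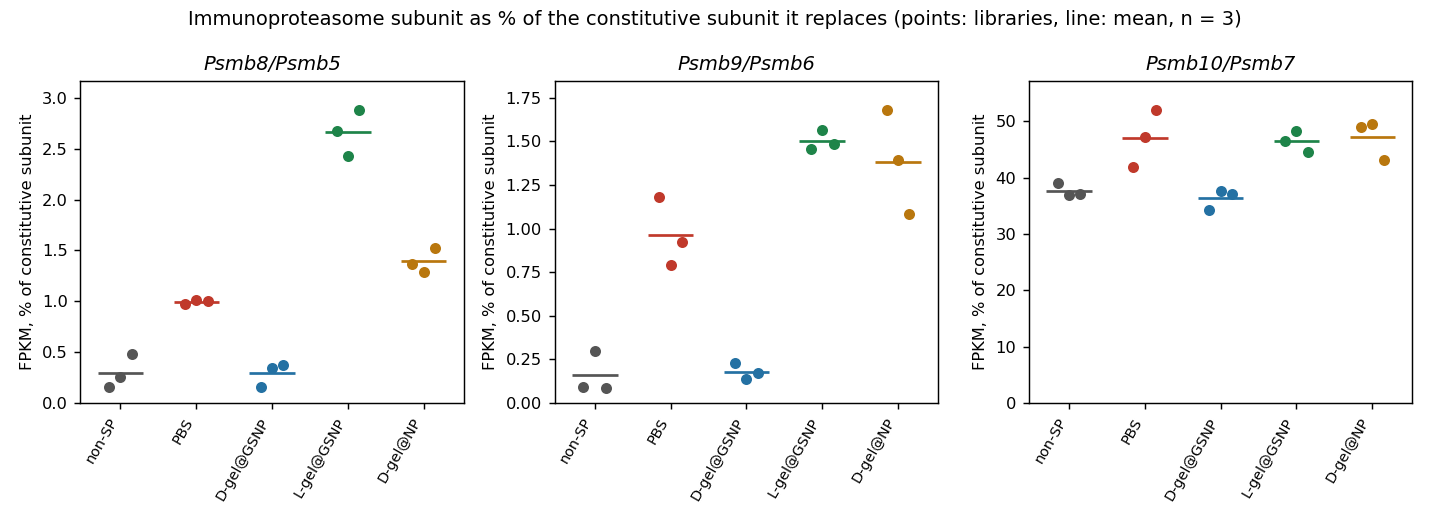
FPKM of Psmb8, Psmb9 and Psmb10 as a percentage of Psmb5, Psmb6 and Psmb7 (vertical axis, percent from 0; horizontal axis, the 5 groups; points are libraries, lines means, n = 3). L-gel@GSNP has the highest Psmb8 share, 2.66% on average, and non-SP and D-gel@GSNP the lowest shares of all 3 subunits.

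Over the 10 genes, PBS against non-SP called 7 higher and 0 lower, where 27.6% of all tested genes were higher and 26.1% lower. At an unadjusted p under 0.05, and with DESeq2, the count was again 7, but it was 6 without the filter on low counts and with the replicate block. The median log2 difference was 1.07, against 0.02 over all tested genes. D-gel@GSNP against PBS called 0 higher and 6 lower, with 27.4% and 27.5% of all genes called in the 2 directions. The median was -0.98 against -0.02. The count was again 6 at an unadjusted p under 0.05 and with DESeq2, and 7 with upper-quartile factors. These 2 comparisons share the PBS libraries, so the second is not independent of the first. D-gel@GSNP against non-SP called 0 of 10, also 0 at an unadjusted p under 0.05 and 0 with DESeq2, where 0.103% of all genes were higher and 0.314% lower. For B2m its 95% interval ran from -0.06 to 0.14, and for Psmb9 from -0.60 to 0.99, so a moderate difference in the rarest genes was not detectable at this depth.

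Relative to non-SP, most of the genes were also higher in the other hydrogel groups. L-gel@GSNP against non-SP called 8 higher and 1 lower (30.6% and 29.2% of all genes), and D-gel@NP against non-SP also 8 and 1 (29.1% and 27.0%), Psmb10 being the lower gene and H2-K1 the uncalled gene in both. Against PBS, L-gel@GSNP called 3 higher (H2-D1, Tap2, Psmb8) and 3 lower (B2m, Tapbp, Psmb10), where 21.5% and 24.1% of all genes were called. D-gel@NP against PBS called 1 higher (Nlrc5) and 4 lower (B2m, Tap1, Tapbp, Psmb10), with 14.2% and 16.3% of all genes, and the count of 5 fell to 3 without D-gel@NP 2 and to 2 without D-gel@NP 3. The median over the 10 genes was 0.13 and 0.04 in these comparisons, with called members in both directions.

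With the same load, D-gel@GSNP against L-gel@GSNP called 1 higher (Psmb10) and 8 lower, where 30.5% and 31.3% of all genes were called, with a median of -0.70 against -0.04. The largest of these differences were in Psmb8, Psmb9 and Tap2, at -2.80, -2.64 and -1.97 log2 units. With the same hydrogel, D-gel@GSNP against D-gel@NP called 1 higher (Psmb10) and 7 lower, with 28.8% and 29.6% of all genes and a median of -0.73. H2-D1 had an adjusted p of 0.0723 there, and passed with DESeq2 (0.0384). L-gel@GSNP against D-gel@NP called 3 higher (H2-D1, Tap1, Tap2) and 1 lower (B2m), with 8.33% and 11.1% of all genes, and the count of 4 fell to 2 without D-gel@NP 2, D-gel@NP 3 or L-gel@GSNP 2. The Tap1 and B2m calls of that comparison, with adjusted p of 0.036 and 0.026, were each lost without 4 of the 6 libraries in turn: Tap1 without D-gel@NP 2 or 3 or L-gel@GSNP 1 or 2 (up to 0.185), B2m without D-gel@NP 1 or 3 or L-gel@GSNP 2 or 3 (up to 0.101).

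**Figure D3:**
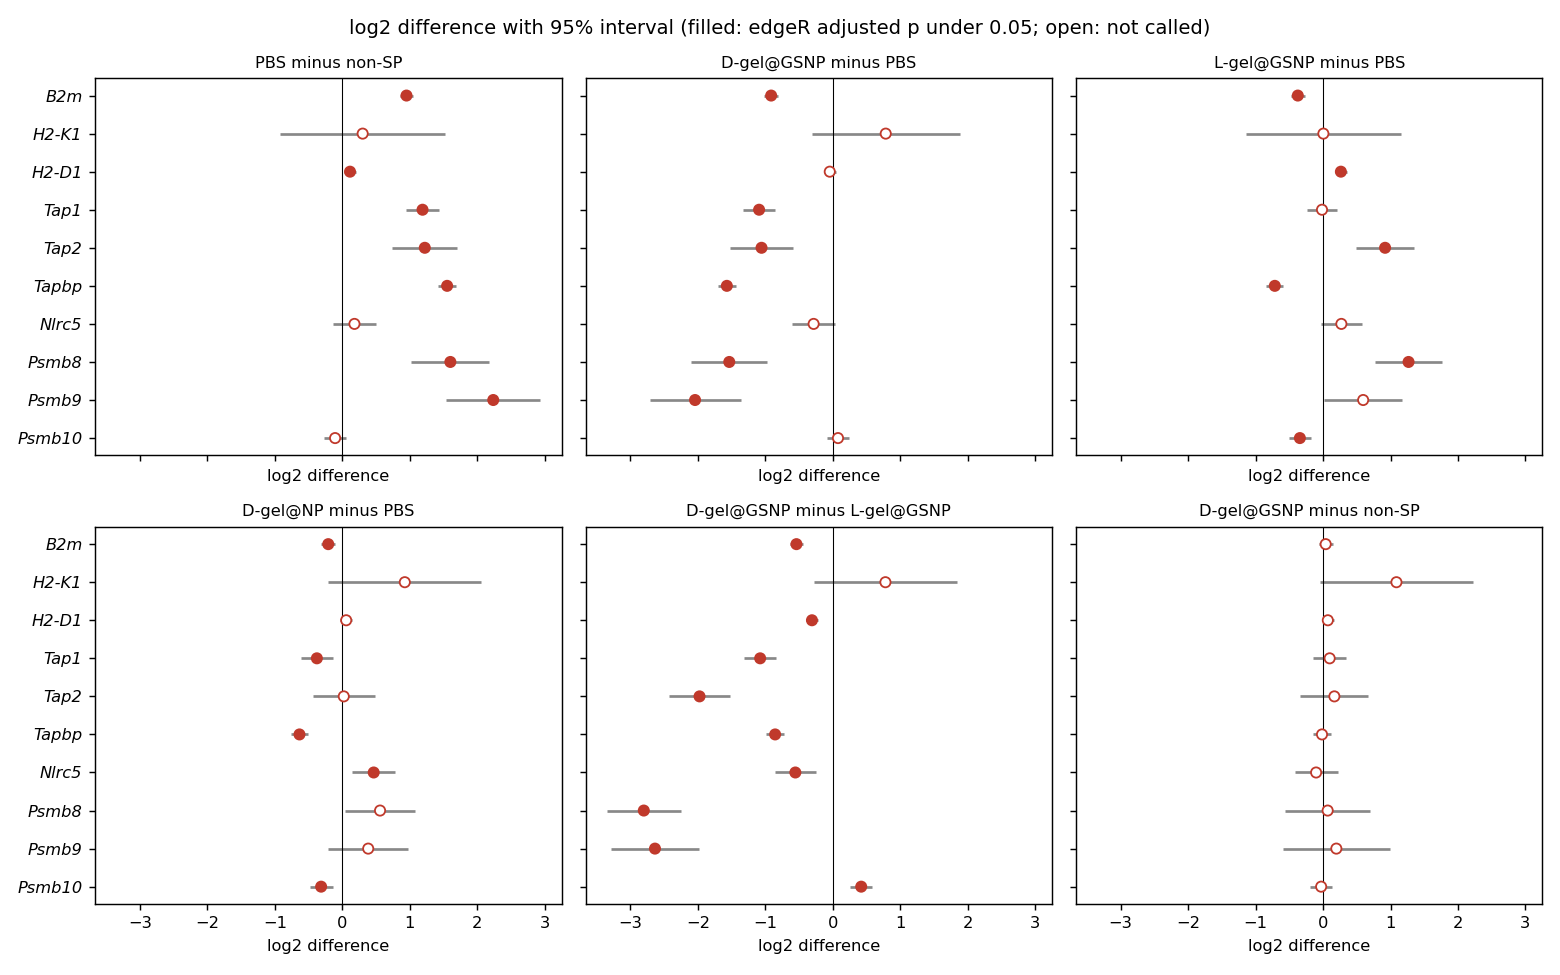
Differences of the 10 genes in 6 comparisons (horizontal axis, log2 difference with its 95% interval; filled points have an edgeR adjusted p under 0.05, open points do not). Of the 7 genes called higher in PBS than in non-SP, all but H2-D1 are called lower in D-gel@GSNP than in PBS, none is called between D-gel@GSNP and non-SP, and Psmb8 has the largest difference between D-gel@GSNP and L-gel@GSNP, -2.80.

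Across the 15 libraries, the log2 CPM of B2m followed that of Tapbp most closely among the 10 genes (Pearson r = 0.962), and Tap1 that of Tap2 (0.907) and of its neighbour Psmb9 (0.892). Psmb10 ran against the others, with r = -0.819 to Psmb8. These are descriptions over libraries that fall into 5 groups. Among 9727 genes, the ones whose pattern was most like that of B2m were Sgpl1 (0.996), the lysosomal protease gene Ctsb (0.993) and the hyaluronan receptor gene Cd44 (0.992). For Tap1 they were Pcolce (0.980), Entpd2 (0.977) and Ift22 (0.976), for Psmb8 Spop (0.966), Rsf1 (0.962) and Gstt1 (0.961), and for Nlrc5 Gemin8 (0.898), Slc25a37 (0.885) and Alb (0.878).

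The partners of the loading complex rose in PBS over non-SP in 7 of 8 genes, with a median log2 difference of 0.35, and fell in 7 of 8 in D-gel@GSNP against PBS, where 27.6% of all tested genes were higher and 27.5% lower in turn. Canx, which encodes the chaperone calnexin, was 737 ± 18 CPM in non-SP, 1094 ± 32.9 in PBS, 721 ± 7.56 in D-gel@GSNP and 736 ± 39 in L-gel@GSNP. Bcap31, which encodes an endoplasmic reticulum membrane protein, was 170 ± 4.14 CPM in non-SP and 272 ± 21.8 in PBS (adjusted p = 4.64e-10). Lnpep encodes an aminopeptidase and was highest in L-gel@GSNP, at 191 ± 13 CPM against 125 ± 12.2 in D-gel@GSNP (adjusted p = 9.17e-09). D-gel@GSNP against L-gel@GSNP called 3 of the 8 higher and 2 lower, near the 30.5% and 31.3% of all tested genes.

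Of 10 other class I genes, 6 passed the filter. H2-T23, which encodes Qa-1, was 26.7 ± 1.13 CPM in non-SP, 40.2 ± 3.72 in PBS, 27.2 ± 1.13 in D-gel@GSNP and 41.5 ± 0.406 in L-gel@GSNP. H2-Q4 was 12.5 ± 1.3 CPM in L-gel@GSNP and 6.95 ± 0.621 in D-gel@GSNP (adjusted p = 7.79e-07), and H2-T10 2.96 ± 0.33 and 0.993 ± 0.25 (adjusted p = 4.43e-06). H2-T22 went against them, at 39.9 ± 1.25 CPM in non-SP, 34.8 ± 1.86 in PBS and 26.6 ± 2.27 in L-gel@GSNP, and its PBS minus non-SP call was lost without PBS 2 (adjusted p = 0.115), non-SP 2 (0.0745) or non-SP 3 (0.0631). These genes too have relatives of similar sequence, and their levels are uncertain. Among other proteins that pair with the B2m chain, Fcgrt, the neonatal Fc receptor gene, rose from 27.0 ± 2.48 CPM in non-SP to 45.1 ± 2.14 in PBS (adjusted p = 3.9e-08), and Mr1, whose product shows vitamin B metabolites to T cells, from 22.5 ± 0.594 to 38.2 ± 2.49 (adjusted p = 1.05e-07). Cd1d1 and Hfe did not pass in that comparison.

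In PBS the 3 constitutive subunits were lower than in non-SP, by 0.16 for Psmb5, 0.37 for Psmb6 and 0.42 for Psmb7 on the log2 scale, and all 3 were higher in D-gel@GSNP than in PBS. The Psmb5 difference of PBS and non-SP no longer passed with upper-quartile factors (adjusted p = 0.158) or without PBS 3 (0.189) or any 1 non-SP library (0.0558 to 0.0911), and its difference of D-gel@GSNP and PBS not with upper-quartile factors (0.0951) or without PBS 3 (0.0581). The subunits of the interferon-induced activator PA28, Psme1 and Psme2, were higher in PBS than in non-SP by 0.53 and 0.28. Psme3, which encodes the nuclear activator, fell from 186 ± 7.03 to 127 ± 1.2 CPM (adjusted p = 1.46e-09). Pomp, the assembly factor, was 244 ± 4.22 CPM in D-gel@GSNP and 157 ± 14.7 with L-gel@GSNP (adjusted p = 7.93e-10).

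Of 13 genes of interferon signalling, PBS against non-SP called 4 higher and 2 lower, where 27.6% and 26.1% of all tested genes were called, so the count is no result about this list. Irf1, which encodes a factor that binds class I and immunoproteasome promoters, was 47.6 ± 1.65 CPM in non-SP, 69.2 ± 5.49 in PBS, 46.4 ± 4.35 in D-gel@GSNP, 104 ± 5.81 with L-gel@GSNP and 87.8 ± 0.977 in D-gel@NP. Ifngr1, the interferon gamma receptor chain, was 127 ± 2.04 CPM in non-SP, 187 ± 11.6 in PBS and 241 ± 3.77 in L-gel@GSNP. Irf9 passed in D-gel@GSNP minus L-gel@GSNP (log2 -0.73, adjusted p = 2.21e-05) but not in PBS minus non-SP (0.16, adjusted p = 0.303). Socs1, the feedback inhibitor, went the other way, at 1.03 ± 0.124 CPM in non-SP and 0.402 ± 0.133 in PBS (adjusted p = 0.00128).

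Interferon target genes outside the pathway called 7 of 9 higher in PBS than in non-SP, with a median of 1.22, and 7 of 9 lower in D-gel@GSNP than in PBS, beside the same shares of 27.6% and 27.5%. Mx1, an antiviral GTPase gene, was 0.540 ± 0.0244 CPM in non-SP, 11.1 ± 0.76 in PBS, 5.50 ± 1.09 in L-gel@GSNP and 9.21 ± 0.327 in D-gel@NP. Gbp2 was 1.38 ± 0.0496 CPM in non-SP, 5.75 ± 1.34 in PBS and 7.92 ± 1.17 in L-gel@GSNP. Gbp3 and Irgm1, both interferon-induced GTPase genes, rose by 1.22 and 1.04 log2 units from non-SP to PBS.

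Of the factors known at class I promoters, Rfx5 was 4.77 ± 0.585 CPM in non-SP, 9.13 ± 0.127 in PBS, 4.88 ± 0.944 in D-gel@GSNP, 8.75 ± 0.799 with L-gel@GSNP and 9.96 ± 0.805 in D-gel@NP. Nfya and Nfkb1 were lower in PBS than in non-SP, by 0.65 and 0.62 log2 units. In all, 2 of 9 such factors were higher and 4 lower in that comparison, beside 27.6% and 26.1% of all tested genes. Susd6, whose product is known to take part in removing class I from the cell surface, rose from 66.4 ± 1.77 to 114 ± 7.19 CPM (adjusted p = 3.65e-10).

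Of the 8 class II genes 5 passed the filter, at low levels. D-gel@GSNP against PBS called 1 of the 5 higher and 4 lower, where 27.4% and 27.5% of all tested genes were called. Against L-gel@GSNP the counts were also 1 and 4, beside 30.5% and 31.3%. Cd74, the invariant chain, was 0.619 ± 0.254 CPM in non-SP, 0.790 ± 0.532 in PBS, 0.307 ± 0.101 in D-gel@GSNP, 4.98 ± 0.655 with L-gel@GSNP and 1.94 ± 0.377 in D-gel@NP. The Cd74 call in D-gel@GSNP minus PBS was lost without PBS 3 (adjusted p = 0.185) or D-gel@GSNP 1 (0.0539), and with limma on log2(FPKM + 1) (0.0831). H2-DMa, a class II loading gene, rose from 1.34 ± 0.126 to 4.13 ± 1.22 CPM in PBS (adjusted p = 2.67e-06). H2-DMb1 was 0.590 ± 0.236 CPM in L-gel@GSNP and 0.0541 ± 0.0586 in D-gel@GSNP (adjusted p = 0.000489). The class II transactivator gene Ciita had 0 CPM in every D-gel@GSNP library and a mean of 0.305 CPM in L-gel@GSNP, and no fold is given for it. Its call in D-gel@GSNP minus PBS was lost without PBS 1 (adjusted p = 0.144), PBS 2 (0.0819), D-gel@NP 1 (0.0516) or any 1 D-gel@GSNP library (0.0901 to 0.1). Ciita and H2-DMb1, at or near 0 CPM in D-gel@GSNP, passed the filter through other groups and could hardly be called higher in D-gel@GSNP. The class II counts are thus partly fixed by the filter and are no result about this list.

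**Figure D4:**
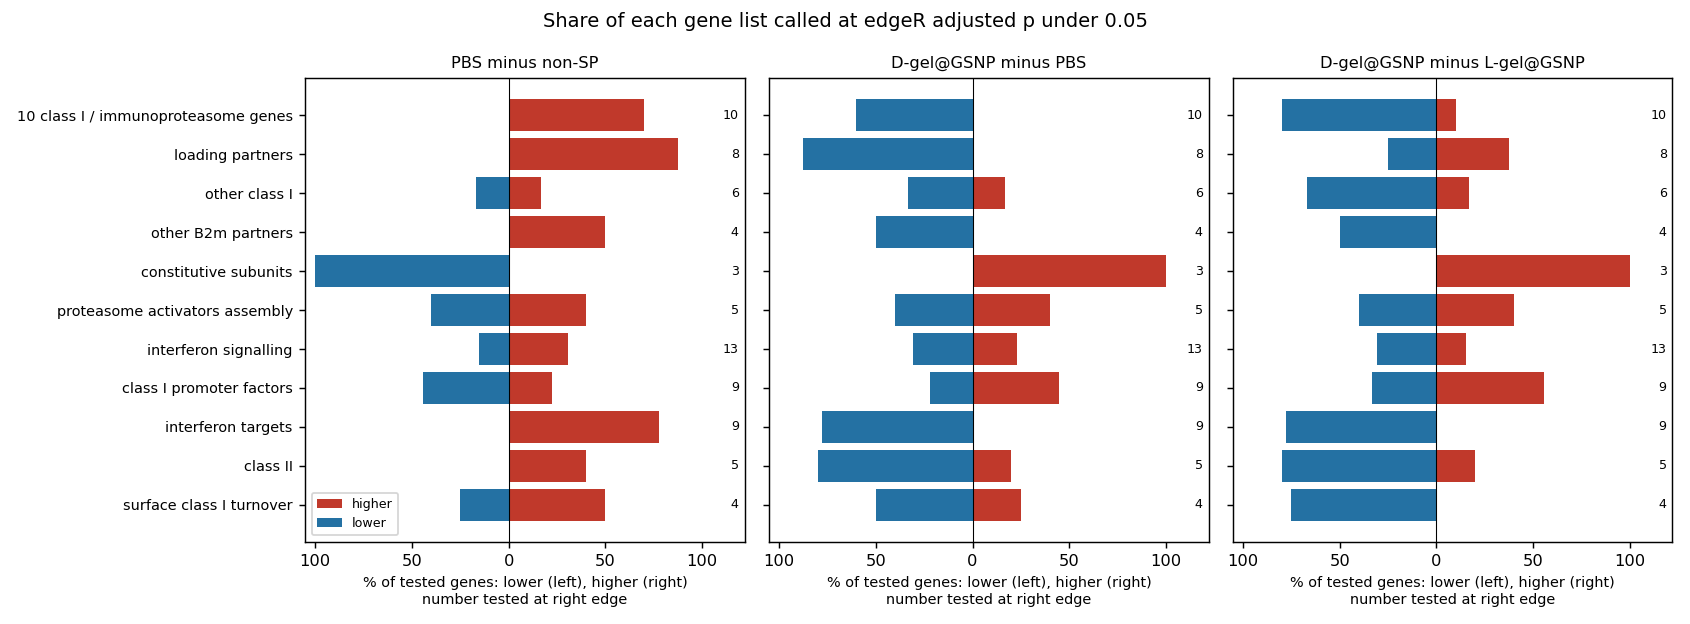
Share of the tested genes of each list called lower (left) or higher (right) in 3 comparisons (horizontal axis, percent; the number tested stands at the right edge). Loading partners and interferon targets are mostly higher in PBS than in non-SP, and the 3 constitutive subunits are lower in PBS than in non-SP and higher in D-gel@GSNP than in PBS or L-gel@GSNP.

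Some markers of other cells moved with these genes, and others did not. Of 14 macrophage and microglia markers, 11 were in the table, and their summed level per library was 11.1 to 11.3 CPM in non-SP, 66.8 to 74.7 in PBS, 12.01 to 12.99 in D-gel@GSNP, 38.5 to 45.3 in L-gel@GSNP and 33.1 to 40.9 in D-gel@NP. Cd68 and Csf1r held most of it, at 42.4 ± 5.79 and 24.6 ± 1.98 CPM in PBS. Of the markers that define such cells, Itgam, which encodes CD11b, was 0.0982 ± 0.11 CPM in non-SP, 1.79 ± 0.409 in PBS, 0.136 ± 0.0704 in D-gel@GSNP, 3.92 ± 0.386 with L-gel@GSNP and 2.48 ± 0.469 in D-gel@NP. Adgre1 and Cx3cr1 were lower in level, at 0.337 and 0.438 CPM in D-gel@NP against 0 and 0.0319 in non-SP. In PBS they were at 0.0328 and 0.185 CPM. Other listed markers did not follow this order. Fcer1g was 0.303 CPM in non-SP, 0.412 in D-gel@GSNP and 0.165 in PBS, and Tmem119 0.131 in non-SP and 0.0338 in D-gel@NP. P2ry12 was 1.56 CPM in non-SP and 2.07 in PBS, but 0.982 in L-gel@GSNP and 0.942 in D-gel@NP. Ptprc, the pan-leukocyte gene CD45, was at 0.455 ± 0.175 CPM in PBS and 0.024 ± 0.0415 in non-SP. Tyrobp had 2 counts each in D-gel@GSNP and D-gel@NP and 0 in the other groups. The 5 T cell markers in the table summed to at most 0.990 CPM and the 4 B cell markers to at most 0.596 CPM in any library. The T cell sum, mostly Cd2, was 0 CPM in non-SP and at most 0.0375 in D-gel@GSNP. It was 0.304 to 0.700 CPM in PBS, 0.713 to 0.990 in L-gel@GSNP and 0.380 to 0.700 in D-gel@NP. Of the 6 fibroblast and pericyte markers, 5 were in the table and summed to 655 to 688 CPM in non-SP and D-gel@GSNP and 1240 to 1487 CPM in the other groups, nearly all of it Dcn. Col1a1 went the other way, at 13.4 CPM in non-SP and 14.4 in D-gel@GSNP against 1.58 in PBS, 3.06 in L-gel@GSNP and 1.44 in D-gel@NP. Pdgfrb was 0.685 CPM in non-SP, 0.135 in PBS and 1.26 in L-gel@GSNP. Rgs5 rose with the sum, from 0.0645 CPM in non-SP to 0.317 in PBS and 0.706 in L-gel@GSNP. The part of these shifts in the class I results was not tested.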

How the data were processed

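Per the submitters' processing notes, the authors used fastp 0.22.0, HISAT2 2.1.0, featureCounts and DESeq2 with GRCm39, and deposited read counts per gene for 15 libraries. Which annotation was counted, and how strand and multi-mapping reads were handled, is not given in the sources used here. The deposited FPKM equal count over gene length and library total for all 34259 genes (relative tolerance 1e-04). Symbols matched 32434 identifiers. Even counts made up 62.3% to 66.4% of the low counts in each library, so counts may not be independent.

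The analysis used edgeR 4.0.16 (R 4.3.3): filterByExpr by group, TMM factors, 1 mean per group over all 15 libraries, quasi-likelihood tests, Benjamini-Hochberg adjustment within each of 10 comparisons and calls at adjusted p under 0.05. Intervals are 95% intervals. Shares of constitutive subunits used FPKM. The labels do not say that replicates were separate cultures, so p-values measure only the spread between these samples. Alternatives were upper-quartile or RLE factors, at least 3 libraries above 1 CPM as the filter, or no filter, DESeq2 1.42.0, limma 3.58.1 on log2(FPKM + 1) and log2(FPKM + 0.1), a replicate block, the 6 libraries compared alone, and leaving out each library. The pipeline was tested on simulated counts. Figures were drawn with matplotlib 3.10.9.

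The members and lists were chosen with earlier results of these data known. Named beside the 10 genes were list genes that differed at least 1.5-fold with adjusted p under 0.05 in PBS minus non-SP, D-gel@GSNP minus PBS or D-gel@GSNP minus L-gel@GSNP, at most 4 per list by lowest adjusted p, the constitutive subunits, and the 3 genes with the highest Pearson r to B2m, Tap1, Psmb8 and Nlrc5 among genes of at least 5 CPM on average. Cd1d1, Hfe, Psme1 and Psme2 were named after their values were seen.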

Additional observations from a re-analysis of the deposited data

How the results depend on the processing

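Of 1648 recomputed differences of the 10 genes, 1546 kept their direction and side of the threshold, 40 lost and 33 gained a call, and 29 changed direction, each of these from a difference that was not called. Of 1508 recomputed differences of the named list genes, 1458 kept their direction and side of the threshold and 50 lost a call. Irf9 apart, only differences already called in the comparisons that named these genes were recomputed. A call could thus be gained only by Irf9, and this figure is not comparable with that of the 10 genes. D-gel@GSNP minus PBS of Psmb10 became -0.000138 with upper-quartile factors. L-gel@GSNP minus PBS of Tap1, -0.02, became 0.0505 with upper-quartile factors, 0.00931 without a filter, 0.0133 with the 1 CPM filter, 0.000629 with limma on log2(FPKM + 1) with or without a filter and 7.1e-05 on log2(FPKM + 0.1). Leaving out 1 library moved L-gel@GSNP minus PBS of H2-K1 between -0.15 and 0.19 and of Tap1 between -0.093 and 0.056, D-gel@NP minus PBS of Tap2 between -0.28 and 0.24, and L-gel@GSNP minus D-gel@NP of Tapbp between -0.14 and 0.015 and of Psmb10 between -0.085 and 0.058. It moved D-gel@GSNP minus non-SP of Tapbp between -0.037 and 0.018, of Nlrc5 between -0.27 and 0.010, of Psmb8 between -0.24 and 0.62, of Psmb9 between -0.12 and 1.05 and of Psmb10 between -0.056 and 0.0017. For the log2 shares it moved Psmb8 to Psmb5 in D-gel@GSNP minus non-SP between -0.33 and 0.49, Psmb9 to Psmb6 in L-gel@GSNP minus D-gel@NP between -0.025 and 0.29, and Psmb10 to Psmb7 between -0.093 and 0.063 in L-gel@GSNP minus PBS, between -0.074 and 0.083 in D-gel@NP minus PBS and between -0.083 and 0.016 in L-gel@GSNP minus D-gel@NP. Leaving out 1 library took the number of the 10 genes called from 5 to between 2 and 5 in D-gel@NP minus PBS and from 4 to between 2 and 3 in L-gel@GSNP minus D-gel@NP, where DESeq2, the 1 CPM filter and the replicate block each called 5.

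In D-gel@GSNP minus non-SP, 73 of all genes were called, against 239 without a filter, 195 with DESeq2, 279 with only the 6 libraries, 25 with limma on log2(FPKM + 1), 11 of it without a filter, 36 on log2(FPKM + 0.1), and 6 to 140 without 1 library. The cause was not tested. Upper-quartile factors shifted the median of all tested genes by -0.145 in D-gel@GSNP minus L-gel@GSNP, by -0.12 in D-gel@GSNP minus D-gel@NP and by 0.119 in L-gel@GSNP minus non-SP, and took the share of calls that were higher from 49.4% to 38.1%, from 49.3% to 38.6% and, in D-gel@NP minus PBS, from 46.5% to 57.2%. The replicate numbers showed no pairing of the libraries. After the group mean of each gene was taken from its log2 CPM, what remained in same-numbered libraries of 2 groups correlated at -0.036 to 0.045. With the replicate number as a block, that comparison of D-gel@GSNP with non-SP called 34 genes, H2-D1 lost its call in PBS minus non-SP, Psmb8 gained one in L-gel@GSNP minus D-gel@NP, and no other call of the 10 genes changed.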
